A study of Danio rerio with 14 samples.

Results

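The enzymes of glycolysis and pyruvate metabolism were examined in RNA from 14 adult zebrafish livers, measured on a single-colour Affymetrix array. Members were chosen by gene symbol alone, as every gene whose name marks it as a hexokinase, glucose-6-phosphate isomerase, phosphofructokinase, fructose-bisphosphatase, aldolase, triosephosphate isomerase, glyceraldehyde-3-phosphate dehydrogenase, phosphoglycerate kinase, phosphoglycerate mutase, enolase, pyruvate kinase, lactate dehydrogenase, pyruvate dehydrogenase or its kinase, or malate dehydrogenase. The rule itself used no measured value, but it was set with earlier results of these data known. It found 45 genes of the 8793 genes on the array that had a probe set of their own, and each was read by the probe set with the highest mean over the 14 arrays. Of these, 44 were tested, and pfkfb2a was too dim to test, at 2.79 to 3.53 on the log2 scale. Of the 45, 39 encode enzymes of the pathway or kinases of its enzymes. The other 6 matched by name only: pfkfb1, pfkfb2a, pfkfb3 and pfkfb4b make or break down fructose-2,6-bisphosphate, a regulator of the pathway, pgam5 is a mitochondrial phosphatase, and pkmyt1 is a kinase that restrains entry into mitosis. Glucokinase (gck) and pyruvate carboxylase had no probe set of a single gene here and were not analysed.

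The fish were heterozygous (ahcy+/-) or wild type (ahcy+/+) for ahcy, the gene of the enzyme that hydrolyses S-adenosylhomocysteine. A tank with both genotypes was overfed for a month, and another tank with both genotypes had the regular diet. There were 2 arrays of overfed ahcy+/- livers, 5 of overfed ahcy+/+ livers, 3 of regular-diet ahcy+/- livers and 4 of regular-diet ahcy+/+ livers, and these numbers limit the precision. Diet and tank cannot be told apart, the labels give neither sex nor age beyond adult, and the p-values measure the spread among fish within a tank. The kind of ahcy mutation is not given in the sources used here.

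Glycolysis splits glucose into pyruvate in a chain of cytosolic reactions, most of which run in both directions, while the hexokinase, phosphofructokinase and pyruvate kinase reactions do not and are the points of control. The liver also runs the chain backwards to make glucose, with fructose-bisphosphatase bypassing phosphofructokinase. Pyruvate is reduced to lactate by lactate dehydrogenase or carried into mitochondria, where pyruvate dehydrogenase turns it into acetyl-CoA for the citrate cycle and for fat synthesis. Teleost fish kept many duplicated genes, so that zebrafish have paralogues, marked a and b, for several of these enzymes.

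Some arrays stood apart, and markers of other tissues differed in mean level between the diets. Array 9 of the regular-diet ahcy+/+ group lay below the other 3 arrays of its group for 21 of the 44 tested members, or 47.7%, against 35.3% of all tested probe sets, and above them for 15 members (34.1%, against 37.6%). Its mean over the 16 measured hepatocyte markers was 12.68, against 13.11 to 13.24 on the other 3. Its means for exocrine pancreas, intestine and vitellogenin markers were 12.43, 9.81 and 12.54, against at most 10.25, 8.29 and 5.51 on the other 3. The exocrine pancreas mean was higher still, 13.05, on array 3 of the regular-diet ahcy+/- group. In the overfed ahcy+/- group the vitellogenin mean was 10.91 on array 1 and 6.48 on array 4. Array 7 of the regular-diet ahcy+/- group had the highest intestine, skeletal muscle and leukocyte means of all, 10.37, 6.71 and 7.77. All 17 exocrine pancreas markers had lower means in overfed than in regular-diet livers in each genotype. So had 18 of 18 skeletal muscle markers in ahcy+/- livers and 17 of 18 in ahcy+/+ livers. Of 12 intestine markers 11 were lower in overfed ahcy+/- livers and 10 in overfed ahcy+/+ livers. Their median log2 differences were -2.07 and -2.09, against -0.66 and -0.22 for muscle and -2.38 and -0.98 for exocrine pancreas. At an adjusted p of 0.05 in limma, 0 exocrine pancreas, 1 intestine and 0 muscle markers were lower in overfed ahcy+/+ livers. That compares with 1.43% of all probe sets. In ahcy+/- livers 0 of each list passed, against 0.033% lower. For the mean of both genotypes 0, 3 and 4 were lower, against 4.5%. The exocrine pancreas means overlapped between the diets in each genotype. Hepatocyte markers went the other way, with 12 of 16 higher in overfed ahcy+/- livers and 14 of 16 in overfed ahcy+/+ livers. Erythrocyte markers were also mostly higher, 6 of 7 in overfed ahcy+/- livers and 5 of 7 in overfed ahcy+/+ livers. Leukocyte markers were higher for 6 of 11 and 1 of 11, and endocrine pancreas markers for 1 of 5 and 0 of 5. Of all probe sets 36.9% were higher in overfed ahcy+/- livers and 44.4% in overfed ahcy+/+ livers. The mean of the muscle markers was 5.61 to 5.82 in overfed ahcy+/- livers and 5.67 to 5.92 in overfed ahcy+/+ livers (log2). It was 6.05 to 6.71 in regular-diet ahcy+/- livers and 5.93 to 6.09 in regular-diet ahcy+/+ livers. These means were near the array medians of 5.95 to 6.12, and how far background signal limits them was not tested. The defining hepatocyte genes were near the top of the scale in every group, with list means of 13.34 ± 0.04, 13.30 ± 0.11, 13.19 ± 0.02 and 13.06 ± 0.26 (SD; n = 2, 5, 3 and 4) in overfed ahcy+/-, overfed ahcy+/+, regular-diet ahcy+/- and regular-diet ahcy+/+ livers. The part of other tissues' RNA in the results below was not tested, and in whole livers fewer cells of a type and less RNA per cell cannot be told apart.

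**Figure D1:**
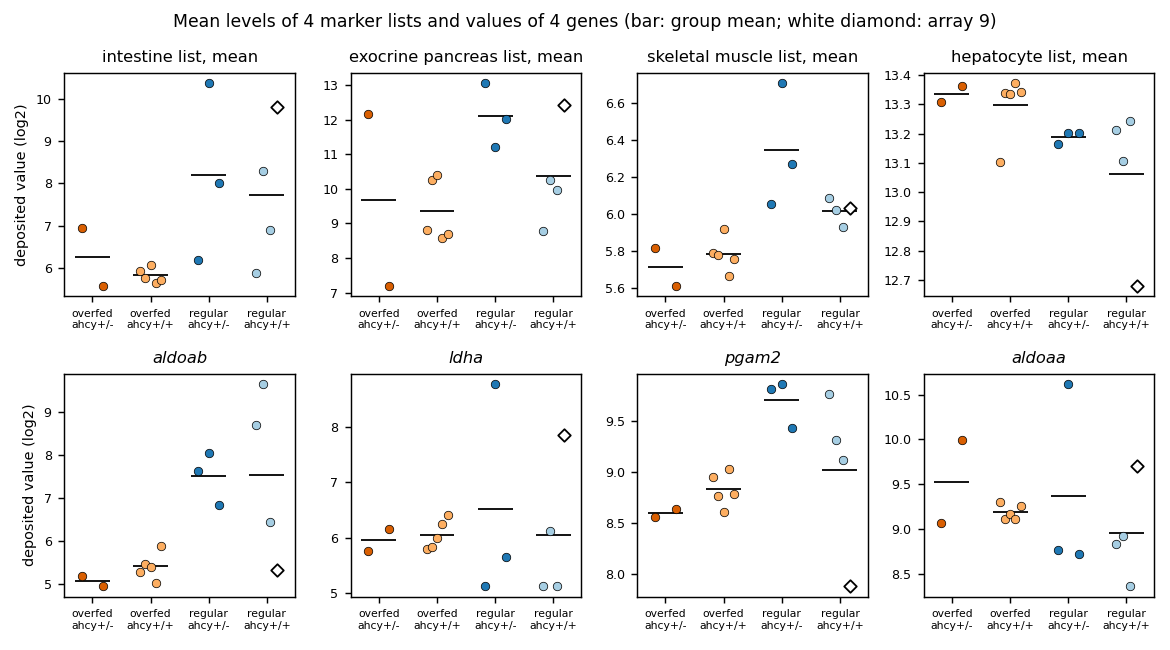
Each point is 1 liver, with overfed groups left of regular-diet groups, bars at group means and a white diamond for array 9 of the regular-diet ahcy+/+ group, on the log2 scale. The upper panels show means of the intestine, exocrine pancreas, skeletal muscle and hepatocyte marker lists, and the lower panels aldoab, ldha, pgam2 and aldoaa. Skeletal muscle means were at most 5.92 in overfed and at least 5.93 in regular-diet livers. ldha and aldoaa were highest on the array with the highest intestine and skeletal muscle means.

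In ahcy+/+ livers, overfeeding changed 4 of the 44 members (9.09%), against 4.5% of all 15134 probe sets tested, at an adjusted p of 0.05 in limma. The phosphoglycerate mutase gene pgam1a and the lactate dehydrogenase gene ldhbb rose, and the enolase gene eno1b and the cytosolic malate dehydrogenase gene mdh1ab fell, against 3.07% of all probe sets higher and 1.43% lower. The median difference over the members was 0.04 on the log2 scale, overfed minus regular diet, against -0.03 over all probe sets, and 25 of 44 members had a positive difference. At an unadjusted p of 0.05, 9 of 44 members passed, against 19.7% of all probe sets. In ahcy+/- livers 0 of 44 members passed the adjusted threshold in limma, against 0.0991% of all probe sets (0.0661% higher and 0.033% lower), and 6 of 44 passed unadjusted, against 14.2%. The mean of both genotypes' differences gave 4 of 44 members (9.09%), against 10.3% of all probe sets: ldhbb rose, and eno1b, mdh1ab and the aldolase gene aldoab fell. The members' share was near the background there. The plot of all members' differences shows most of them close to 0 beside these few.

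The counts leaned on single arrays. In ahcy+/+ livers the count was 0 without array 4 or array 6 of the overfed group or array 2 of the regular-diet group, and 1 without array 5 of the regular-diet group. It was 2 without array 6 of the regular-diet group, without array 2, 3 or 7 of the overfed group, or without either overfed ahcy+/- array, which enter through the shared estimate of the spread. Without array 9 of the regular-diet group it was 5 of 44 (11.4%), against 8.86% of all probe sets: pgam1a rose, aldoab, pgam2, eno1b and mdh1ab fell, and ldhbb did not pass. Without array 9 pgam2 passed in ahcy+/- livers, as 1 of 44 members (2.27%), with a log2 difference of -1.1 and an adjusted p of 0.0351 in limma. Over all 15134 probe sets 91 then passed in ahcy+/- livers, against 15 with array 9. The pgam2 difference in ahcy+/- livers was -1.1 with array 9 too, as that array enters this comparison only through the shared estimate of the spread. For the mean of both genotypes the count then was 8 of 44 (18.2%), against 15.3%, with aldocb, pgam1a and ldhbb higher and aldoab, pgam2, eno1b, mdh1ab and mdh2 lower. For 11 of 44 members the ahcy+/+ difference changed sign without array 9, as given below for each of them. The count for the mean of both genotypes was 2 without array 3 of the regular-diet ahcy+/- group and 1 without array 4 of the overfed ahcy+/- group. With the mean of the skeletal muscle markers as a covariate, 0 members passed in any of these comparisons. Over all probe sets 67 passed in ahcy+/+ livers and 11 for the mean of both genotypes, against 681 and 1564 without it. That mean itself separated the diets, at most 5.92 in overfed and at least 5.93 in regular-diet livers. The covariate can therefore take up the diet difference, and a call lost with it, here or below, cannot tell muscle RNA from diet.

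**Figure D2:**
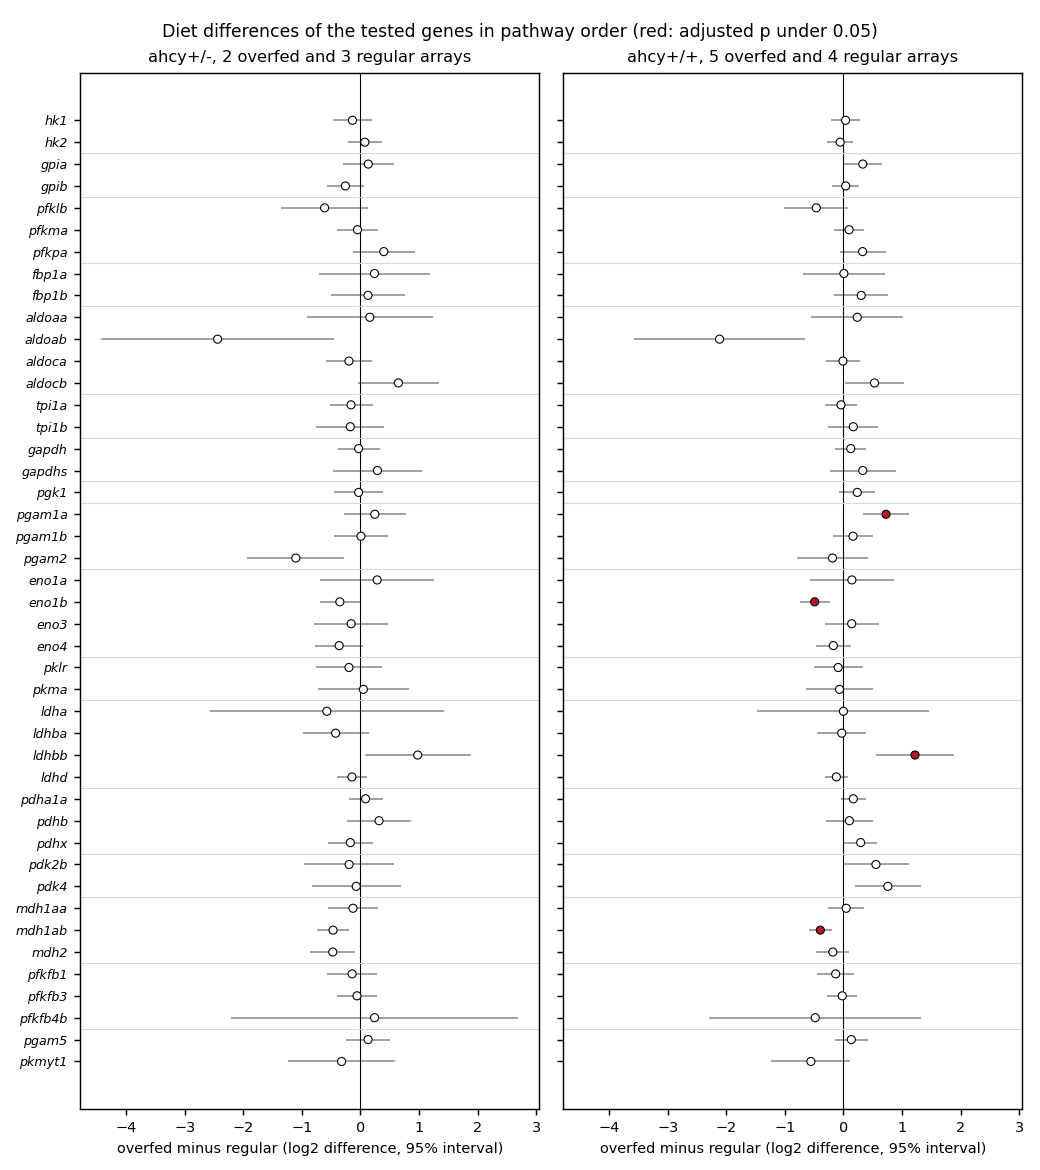
Points show the log2 difference of each of the 44 tested genes, overfed minus regular diet, with 95% intervals, in ahcy+/- livers on the left and ahcy+/+ livers on the right, in pathway order with lines between enzymes. Red points passed an adjusted p of 0.05 in limma: pgam1a and ldhbb above 0, and eno1b and mdh1ab below 0, all in ahcy+/+ livers.

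The steps from glucose to fructose bisphosphate did not pass the test in either genotype. The hexokinase gene hk1, which makes glucose-6-phosphate, read 6.97 and 7.18 in overfed ahcy+/- livers, 7.28, 7.19, 7.06, 6.99 and 7.03 in overfed ahcy+/+ livers, 7.46, 7.07 and 7.1 in regular-diet ahcy+/- livers and 7.22, 6.92, 7.12 and 7.05 in regular-diet ahcy+/+ livers (log2). The groups overlapped, and hk2, at a mean of 6.07, gave differences of 0.08 in ahcy+/- and -0.06 in ahcy+/+ livers, and 0.04 in ahcy+/+ livers without array 9. Glucose-6-phosphate isomerase is encoded by gpia and gpib, and gpia read 11.89 and 11.63 in overfed ahcy+/- livers, 11.58, 11.46, 11.56, 12.04 and 11.86 in overfed ahcy+/+ livers, 11.33, 11.72 and 11.81 in regular-diet ahcy+/- livers and 11.51, 11.35, 11.51 and 11.11 in regular-diet ahcy+/+ livers. The highest gpia reading came from an overfed ahcy+/+ liver and the lowest from array 9 of the regular-diet ahcy+/+ group, with a log2 difference of 0.33 ± 0.15 (SE) and an adjusted p of 0.238 in ahcy+/+ livers (limma). The ahcy+/- difference of gpia was 0.13 ± 0.2.

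Phosphofructokinase, the committed step, was read by pfklb, pfkma and pfkpa. pfklb, the liver-type subunit, read 5.85 and 5.71 in overfed ahcy+/- livers, 6.29, 5.7, 6.04, 5.73 and 6.33 in overfed ahcy+/+ livers, 6.13, 6.5 and 6.55 in regular-diet ahcy+/- livers and 5.99, 6.5, 6.05 and 7.39 in regular-diet ahcy+/+ livers. Both overfed ahcy+/- arrays were below the regular-diet ahcy+/- arrays, the ahcy+/+ groups overlapped, and array 9 was the highest of all. The pfklb differences were -0.61 and -0.46 in ahcy+/- and ahcy+/+ livers, while those of pfkpa, the platelet-type subunit, were 0.4 and 0.33, with adjusted p-values of 0.431, 0.335, 0.47 and 0.346 in limma. Further pfklb probe sets differed less, by -0.09 and -0.22 in ahcy+/- livers and by -0.01 and -0.14 in ahcy+/+ livers. The muscle-type pfkma was dim, with a mean of 4.88. Among the enzymes that set fructose-2,6-bisphosphate, pfkfb1 read 7.14 and 6.65 in overfed ahcy+/- livers, 6.64, 7.0, 7.0, 6.89 and 6.65 in overfed ahcy+/+ livers, 6.73, 7.04 and 7.33 in regular-diet ahcy+/- livers and 7.09, 6.92, 6.79 and 7.07 in regular-diet ahcy+/+ livers, with overlapping groups. pfkfb4b ranged from 5.07 to 9.99, and the highest value was array 9's, so its difference of -0.48 in ahcy+/+ livers had an SE of 0.84 and was 0.54 without it. pfkfb3, at a mean of 5.36, differed by -0.06 and -0.02 in the 2 genotypes.

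Fructose-bisphosphatase opposes phosphofructokinase in glucose synthesis. fbp1b read 13.43 and 13.39 in overfed ahcy+/- livers, 13.31, 13.53, 13.34, 13.21 and 13.05 in overfed ahcy+/+ livers, 13.33, 13.11 and 13.41 in regular-diet ahcy+/- livers and 13.27, 13.27, 13.28 and 12.11 in regular-diet ahcy+/+ livers. Array 9 was the lowest, and the groups overlapped. The diet differences of fbp1b were 0.13 (95% interval -0.5 to 0.75) and 0.3 (-0.16 to 0.76) in ahcy+/- and ahcy+/+ livers. fbp1a gave 0.24 and 0.01, again with array 9 far below its group, at 6.18 against 7.80 to 7.97, and its ahcy+/+ difference was -0.41 without that array. Neither gene passed the test.

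Aldolase cuts fructose bisphosphate into triose phosphates, and its 4 measured genes had unlike differences. aldoab, a duplicate of the muscle-type aldolase A gene, read 5.19 and 4.96 in overfed ahcy+/- livers, 5.29, 5.48, 5.42, 5.04 and 5.9 in overfed ahcy+/+ livers, 7.63, 8.07 and 6.84 in regular-diet ahcy+/- livers and 8.72, 9.67, 6.45 and 5.33 in regular-diet ahcy+/+ livers. All overfed livers were under 6, and every regular-diet liver but array 9 was above 6. Its log2 difference was -2.44 ± 0.92 in ahcy+/- livers (adjusted p 0.269) and -2.12 ± 0.68 in ahcy+/+ livers (adjusted p 0.096), and over both genotypes aldoab fell by 2.28 (SE 0.57, adjusted p 0.025 in limma), or 4.85-fold. Without array 9 the ahcy+/+ difference was -2.85 with an adjusted p of 0.00908. The mean of both genotypes lost the threshold without either overfed ahcy+/- array, or without array 3 or 7 of the regular-diet ahcy+/- group, with adjusted p-values of 0.0517 to 0.102. The muscle marker mean was also lower in overfed livers, and with it as a covariate the adjusted p of aldoab for both genotypes was 0.498 in limma. As that mean separated the diets, the fit cannot tell the 2 apart, and a part of muscle RNA was not tested.

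The other copy of aldolase A, aldoaa, read 9.07 and 9.99 in overfed ahcy+/- livers, 9.31, 9.12, 9.17, 9.12 and 9.26 in overfed ahcy+/+ livers, 8.77, 10.62 and 8.73 in regular-diet ahcy+/- livers and 8.83, 8.93, 8.36 and 9.71 in regular-diet ahcy+/+ livers. Its highest values were those of array 7 of the regular-diet ahcy+/- group and of array 4 of the overfed ahcy+/- group. The aldoaa differences were 0.16 and 0.24, both within their spread. The aldolase C genes are known from brain, and aldocb differed by 0.65 in ahcy+/- and 0.53 in ahcy+/+ livers, with an adjusted p of 0.0769 for the mean of both genotypes, and of 0.0263 without array 9. Another aldocb probe set differed by 0.02 and 0.09. aldoca differed by -0.2 and -0.01.

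The abundant enzymes of the triose steps did not pass the test. Triosephosphate isomerase, which interconverts the triose phosphates, was read by tpi1b at 12.62 and 12.55 in overfed ahcy+/- livers, 12.47, 12.59, 12.57, 12.63 and 12.36 in overfed ahcy+/+ livers, 12.66, 12.82 and 12.79 in regular-diet ahcy+/- livers and 12.58, 12.58, 12.74 and 11.53 in regular-diet ahcy+/+ livers. The overfed ahcy+/- livers were just under the regular-diet ahcy+/- livers, and array 9 was lowest. gapdh, which oxidises glyceraldehyde-3-phosphate, read 13.6 and 13.55 in overfed ahcy+/- livers, 13.5, 13.57, 13.61, 13.53 and 13.53 in overfed ahcy+/+ livers, 13.54, 13.65 and 13.62 in regular-diet ahcy+/- livers and 13.52, 13.54, 13.65 and 12.98 in regular-diet ahcy+/+ livers. Its differences were -0.03 (95% interval -0.39 to 0.33) in ahcy+/- livers and 0.12 (-0.14 to 0.39) in ahcy+/+ livers. pgk1, the phosphoglycerate kinase that yields the first ATP, read 10.79 and 11.0 in overfed ahcy+/- livers, 11.19, 11.01, 10.93, 11.03 and 10.87 in overfed ahcy+/+ livers, 10.95, 10.98 and 10.83 in regular-diet ahcy+/- livers and 10.93, 11.0, 10.88 and 10.27 in regular-diet ahcy+/+ livers. Array 9 was again the lowest for both genes. pgk1 differed by -0.03 (-0.44 to 0.38) and 0.24 (-0.07 to 0.54), and another pgk1 probe set, at a mean of 4.79, by -0.17 and -0.24. gapdhs differed by 0.29 and 0.33, and tpi1a by -0.16 and -0.04. Without array 9 the ahcy+/+ differences of gapdh, tpi1b and tpi1a changed sign, to -0.03, -0.11 (against 0.17 with it) and 0.01. On the array's gapdhs control probe sets, the 3′ signal exceeded the 5′ signal by 0.58 to 1.65 in overfed ahcy+/- livers, 0.51 to 0.94 in overfed ahcy+/+ livers, 0.16 to 0.85 in regular-diet ahcy+/- livers and -0.34 to 0.57 in regular-diet ahcy+/+ livers (log2). The mean of this gapdhs measure of RNA integrity was 1.12 in overfed and 0.54 in regular-diet ahcy+/- livers. In ahcy+/+ livers it was 0.80 and 0.10. The ranges of the diets overlapped in each genotype, and the lowest value, -0.34, was array 9's. On the array's acta1 control probe sets the same difference was -0.88 to -0.415 in overfed and -0.93 to 2.25 in regular-diet ahcy+/- livers. In ahcy+/+ livers it was -1.02 to -0.54 and -1.31 to -0.16, so the diets overlapped in each genotype. The part of RNA integrity in the results was not tested.

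**Figure D3:**
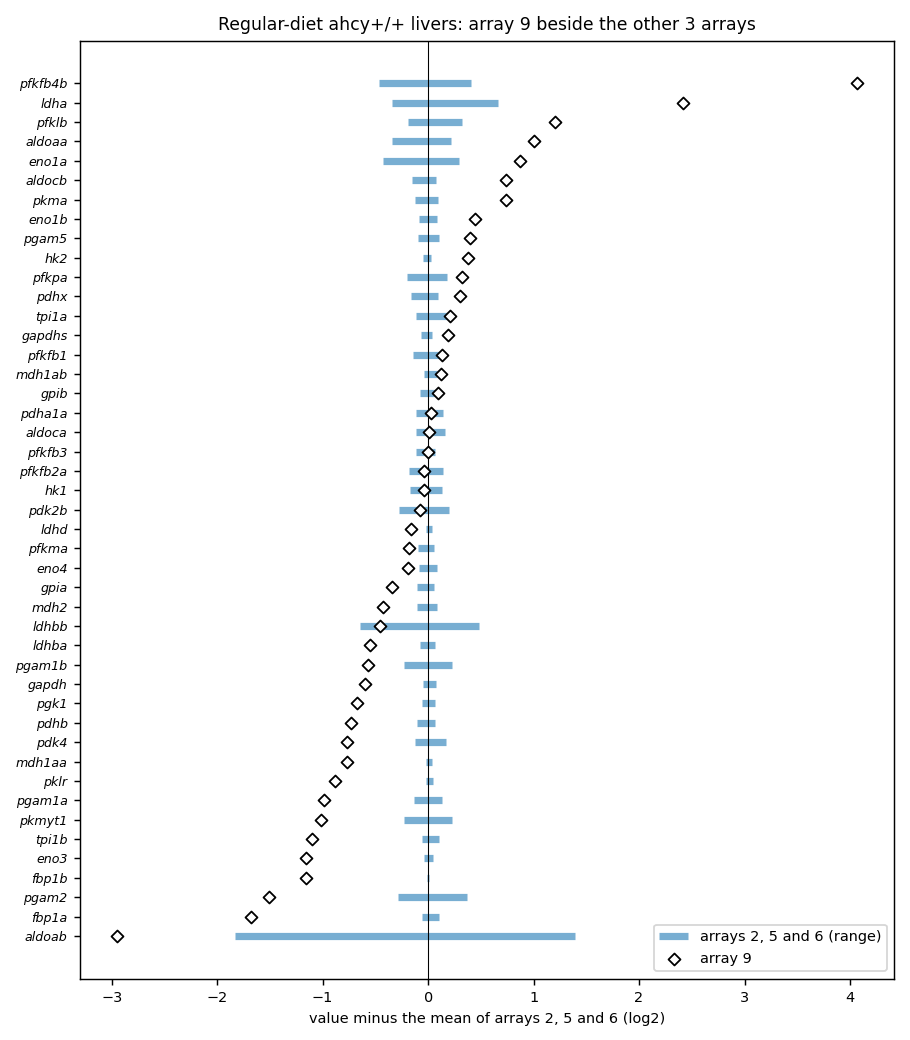
For each of the 45 genes the white diamond is array 9 of the regular-diet ahcy+/+ group and the blue bar the range of the other 3 arrays of that group, both minus the mean of those 3 (log2). The diamond lies outside the bar for most genes, to the left for aldoab, fbp1a, pgam2 and fbp1b and to the right for pfkfb4b, ldha and pfklb.

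Phosphoglycerate mutase moves the phosphate of 3-phosphoglycerate to the next carbon, and its 3 genes had unlike differences. pgam1a read 11.72 and 11.76 in overfed ahcy+/- livers, 11.66, 11.7, 11.85, 11.73 and 11.83 in overfed ahcy+/+ livers, 11.49, 11.46 and 11.53 in regular-diet ahcy+/- livers and 11.14, 11.41, 11.28 and 10.28 in regular-diet ahcy+/+ livers. All 7 overfed livers were above all 7 regular-diet livers, and among the regular-diet livers array 9 was lowest. In ahcy+/+ livers pgam1a rose by 0.73 ± 0.18 (SE), or 1.65-fold, with an adjusted p of 0.0379 in limma. That call was lost with the muscle, the pancreas and intestine, or the hepatocyte covariates (adjusted p 0.169, 0.163 and 0.152). It was also lost with quantile normalization (0.202) and with the compared groups alone (0.0824). The ahcy+/- difference was 0.25 (95% interval -0.28 to 0.78), and the mean of both genotypes had an adjusted p of 0.059. Without array 9 the ahcy+/+ difference shrank to 0.48 ± 0.09 with an adjusted p of 0.0086, and the mean of both genotypes was 0.36 with an adjusted p of 0.00655. The ahcy+/+ call held in 4 of 14 fits that left out 1 array, those without array 5 or 9 of the regular-diet ahcy+/+ group or array 7 or 8 of the regular-diet ahcy+/- group, and in the other 10 fits its adjusted p was 0.0508 to 0.0894.

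pgam1b, the duplicate of pgam1a, read 8.53 and 8.86 in overfed ahcy+/- livers, 8.75, 9.02, 8.58, 8.6 and 8.46 in overfed ahcy+/+ livers, 8.76, 8.68 and 8.63 in regular-diet ahcy+/- livers and 8.44, 8.66, 8.89 and 8.09 in regular-diet ahcy+/+ livers. Its groups overlapped, with differences of 0.01 (-0.46 to 0.48) in ahcy+/- and 0.16 (-0.18 to 0.51) in ahcy+/+ livers. pgam2, the form known from muscle in mammals, read 8.56 and 8.64 in overfed ahcy+/- livers, 8.95, 8.77, 8.61, 9.03 and 8.78 in overfed ahcy+/+ livers, 9.81, 9.86 and 9.43 in regular-diet ahcy+/- livers and 9.76, 9.31, 9.11 and 7.88 in regular-diet ahcy+/+ livers. The overfed ahcy+/- livers were below the regular-diet ahcy+/- livers, and in ahcy+/+ livers array 9 lay below every overfed liver while the other 3 regular-diet livers lay above them. The pgam2 difference was -1.1 ± 0.38 in ahcy+/- livers (adjusted p 0.231) and -0.19 ± 0.28 in ahcy+/+ livers (adjusted p 0.76), and without array 9 the ahcy+/+ difference was -0.57 with an adjusted p of 0.043. pgam5, which shares the name but removes phosphate from proteins, differed by 0.13 and 0.13, and another pgam5 probe set by -0.44 and -0.08.

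**Figure D4:**
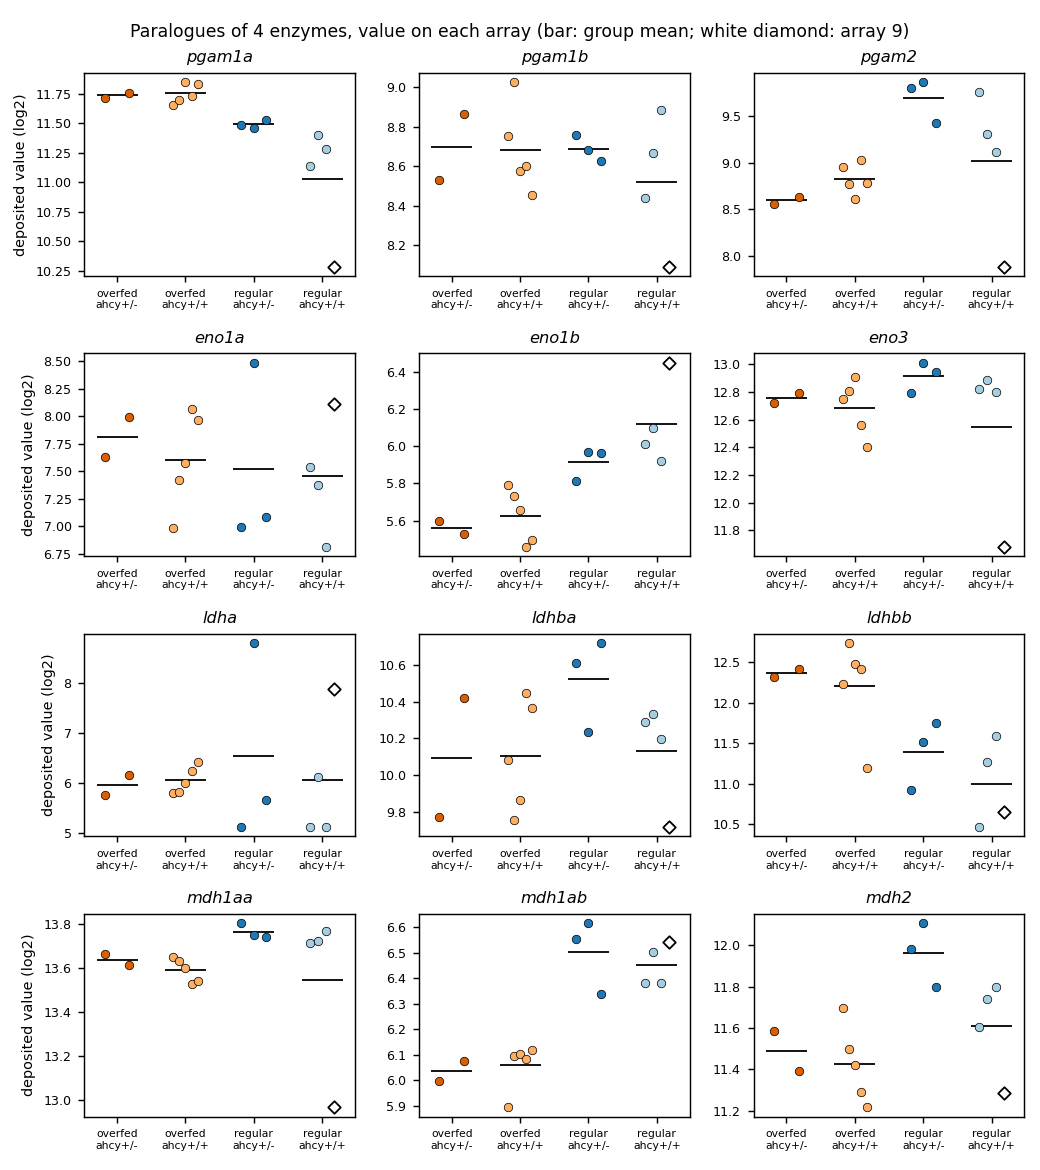
Log2 values of the measured phosphoglycerate mutase genes, 3 enolase genes, 3 lactate dehydrogenase genes and the malate dehydrogenase genes are plotted for each liver, with overfed groups left of regular-diet groups, bars at group means and a white diamond for array 9 of the regular-diet ahcy+/+ group. Each panel has its own scale. The 7 overfed livers lie above the 7 regular-diet livers for pgam1a and below them for eno1b and mdh1ab.

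Enolase makes phosphoenolpyruvate. eno1b read 5.6 and 5.53 in overfed ahcy+/- livers, 5.79, 5.73, 5.66, 5.46 and 5.5 in overfed ahcy+/+ livers, 5.81, 5.97 and 5.96 in regular-diet ahcy+/- livers and 6.01, 6.1, 5.92 and 6.45 in regular-diet ahcy+/+ livers. Every overfed liver was below every regular-diet liver, and array 9 was highest. eno1b fell by 0.49 ± 0.12 in ahcy+/+ livers (adjusted p 0.0337) and by 0.42 ± 0.1 for the mean of both genotypes (adjusted p 0.0188, limma), with a difference of -0.35 (-0.7 to -0.01) in ahcy+/- livers. The ahcy+/+ call was lost without array 2 or 5 of the regular-diet ahcy+/+ group or array 4, 6 or 7 of the overfed ahcy+/+ group, with adjusted p-values of 0.0627 to 0.0938. The mean of both genotypes was lost without either overfed ahcy+/- array, with adjusted p-values of 0.0576 and 0.0891. With the muscle, the pancreas and intestine, or the hepatocyte covariates the call for the mean was lost (adjusted p 0.504, 0.223 and 0.0822 in limma). The ahcy+/+ call was lost with each of them too (0.194, 0.15 and 0.14). eno1b was a dim probe set, at a mean of 5.82.

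eno3, known from muscle in mammals, had the highest mean of the enolase probe sets and read 12.72 and 12.79 in overfed ahcy+/- livers, 12.75, 12.81, 12.91, 12.56 and 12.4 in overfed ahcy+/+ livers, 12.79, 13.01 and 12.94 in regular-diet ahcy+/- livers and 12.82, 12.88, 12.8 and 11.68 in regular-diet ahcy+/+ livers. It differed by -0.16 (-0.79 to 0.47) and 0.14 (-0.32 to 0.6) in ahcy+/- and ahcy+/+ livers, array 9 was the lowest, and without it the ahcy+/+ difference was -0.15. eno1a, the duplicate of eno1b, read 7.63 and 7.99 in overfed ahcy+/- livers, 6.99, 7.42, 7.57, 8.06 and 7.96 in overfed ahcy+/+ livers, 6.99, 8.49 and 7.09 in regular-diet ahcy+/- livers and 7.54, 7.37, 6.81 and 8.11 in regular-diet ahcy+/+ livers. Its groups overlapped widely, and its differences were 0.29 and 0.14. eno4, known for a part in sperm tails in mammals, read 5.74 and 5.44 in overfed ahcy+/- livers, 5.75, 5.7, 5.71, 5.6 and 5.54 in overfed ahcy+/+ livers, 6.17, 5.49 and 6.19 in regular-diet ahcy+/- livers and 5.79, 5.88, 5.96 and 5.68 in regular-diet ahcy+/+ livers, and did not pass, with an adjusted p of 0.163 for the mean of both genotypes.

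Pyruvate kinase closes the pathway. pklr, the liver and red cell form, read 13.06 and 12.84 in overfed ahcy+/- livers, 13.17, 12.94, 13.01, 12.57 and 12.6 in overfed ahcy+/+ livers, 13.18, 12.95 and 13.3 in regular-diet ahcy+/- livers and 13.21, 13.15, 13.14 and 12.29 in regular-diet ahcy+/+ livers. The groups overlapped, and the differences were -0.2 (-0.77 to 0.37) and -0.09 (-0.51 to 0.33). pkma, of the muscle type, differed by 0.05 and -0.07. Without array 9 the ahcy+/+ difference was -0.31 (-0.63 to 0.01) for pklr and 0.12 for pkma. Neither passed in limma, with or without that array.

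Lactate dehydrogenase interconverts pyruvate and lactate, and ldhbb had the largest increase among the 44 members. ldhbb, one of a pair of genes for the subunit that prevails in heart, read 12.33 and 12.42 in overfed ahcy+/- livers, 12.23, 12.74, 12.48, 12.41 and 11.2 in overfed ahcy+/+ livers, 10.92, 11.52 and 11.76 in regular-diet ahcy+/- livers and 10.46, 11.27, 11.59 and 10.65 in regular-diet ahcy+/+ livers. In ahcy+/- livers both overfed arrays were above the 3 regular-diet ones, and in ahcy+/+ livers 4 of 5 overfed arrays were above all regular-diet ones, with array 7 of the overfed group below the highest of these. ldhbb rose by 1.22 ± 0.31 in ahcy+/+ livers, or 2.33-fold (adjusted p 0.0418), and by 1.1 ± 0.26 for the mean of both genotypes (adjusted p 0.0195, limma). The ahcy+/- difference was 0.98 (0.07 to 1.89), with an adjusted p of 0.323. With the muscle, the pancreas and intestine, or the hepatocyte covariates the call for the mean was lost (adjusted p 0.322, 0.0685 and 0.0768 in limma). The ahcy+/+ call was lost with each of them too (0.139, 0.0779 and 0.141), and with quantile normalization (0.0629). The ahcy+/+ call held in 4 of 14 fits that left out 1 array, those without array 6 of the regular-diet ahcy+/+ group, array 3 or 8 of the regular-diet ahcy+/- group or array 7 of the overfed ahcy+/+ group, and in the others its adjusted p was 0.0525 to 0.123. The mean of both genotypes was lost without array 3 of the regular-diet ahcy+/- group or either overfed ahcy+/- array, with adjusted p-values of 0.0521 to 0.0865.

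ldhba, the other gene of that subunit, differed by -0.42 (-0.99 to 0.14) and -0.03 (-0.45 to 0.39). ldha, the subunit that prevails in muscle, read 5.75 and 6.16 in overfed ahcy+/- livers, 5.79, 5.82, 5.99, 6.24 and 6.42 in overfed ahcy+/+ livers, 5.13, 8.8 and 5.66 in regular-diet ahcy+/- livers and 5.11, 6.12, 5.12 and 7.86 in regular-diet ahcy+/+ livers. It was highest on array 7 of the regular-diet ahcy+/- group and on array 9 of the regular-diet ahcy+/+ group. The intestine means of these arrays were 10.37 and 9.81, and their skeletal muscle means 6.71, the highest of all, and 6.04. Which tissue's RNA, if any, raised ldha there was not tested. Its differences were -0.57 and -0.00, with SEs of 0.93 and 0.68, and the ahcy+/+ difference was 0.6 without array 9. ldhd, which acts on D-lactate, differed by -0.14 and -0.12.

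The pyruvate dehydrogenase complex and its kinases did not pass the test. pdhb, the beta subunit of its first enzyme, read 10.99 and 11.09 in overfed ahcy+/- livers, 11.06, 10.98, 10.38, 10.45 and 10.4 in overfed ahcy+/+ livers, 10.73, 10.75 and 10.69 in regular-diet ahcy+/- livers and 10.63, 10.77, 10.8 and 10.004 in regular-diet ahcy+/+ livers. The overfed ahcy+/- livers were above the regular-diet ahcy+/- livers, and the ahcy+/+ groups overlapped. pdhb differed by 0.32 and 0.1, pdha1a, the alpha subunit, by 0.09 and 0.17, and pdhx, a binding protein of the complex, by -0.17 and 0.29. Array 9 was the lowest for pdhb, and without it the ahcy+/+ difference was -0.08. pdk2b, of the kinases that switch the complex off, read 9.6 and 9.41 in overfed ahcy+/- livers, 9.54, 9.2, 9.94, 10.83 and 10.14 in overfed ahcy+/+ livers, 9.53, 10.04 and 9.51 in regular-diet ahcy+/- livers and 9.12, 9.59, 9.48 and 9.32 in regular-diet ahcy+/+ livers. Array 6 of the overfed ahcy+/+ group was the highest. In ahcy+/+ livers pdk2b differed by 0.55 ± 0.26 and pdk4, the kinase known to respond to fasting and fat, by 0.76 ± 0.26, with adjusted p-values of 0.265 and 0.12 in limma. Their ahcy+/- differences were -0.19 and -0.07, and the interaction of genotype and diet did not pass for either, with adjusted p-values of 1 and 1.

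Malate dehydrogenase interconverts malate and oxaloacetate in the cytosol (mdh1aa, mdh1ab) and in mitochondria (mdh2). mdh1ab read 6.0 and 6.07 in overfed ahcy+/- livers, 5.89, 6.09, 6.1, 6.08 and 6.12 in overfed ahcy+/+ livers, 6.56, 6.62 and 6.34 in regular-diet ahcy+/- livers and 6.38, 6.5, 6.38 and 6.54 in regular-diet ahcy+/+ livers. All 7 overfed livers were below all 7 regular-diet livers, with array 2 of the overfed ahcy+/+ group lowest. mdh1ab fell by 0.39 ± 0.09 in ahcy+/+ livers (adjusted p 0.0277) and by 0.43 ± 0.08 for the mean of both genotypes (adjusted p 0.00545, limma), with a difference of -0.47 (-0.73 to -0.2) in ahcy+/- livers. The call for the mean of both genotypes held whichever array was left out, with a highest adjusted p of 0.0292, but not with the muscle covariate (0.306) or with pancreas and intestine covariates (0.0507). The ahcy+/+ call passed in 8 of them and was lost without array 2, 5 or 6 of the regular-diet ahcy+/+ group or array 2, 4 or 6 of the overfed ahcy+/+ group, with adjusted p-values of 0.0524 to 0.0851. The mdh1ab probe set was dim, at a mean of 6.26.

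mdh1aa, the duplicate of mdh1ab, read 13.67 and 13.61 in overfed ahcy+/- livers, 13.65, 13.64, 13.6, 13.53 and 13.54 in overfed ahcy+/+ livers, 13.81, 13.75 and 13.74 in regular-diet ahcy+/- livers and 13.72, 13.73, 13.77 and 12.97 in regular-diet ahcy+/+ livers. Its differences were -0.13 (-0.55 to 0.3) in ahcy+/- livers, where the overfed arrays were just below the regular-diet ones, and 0.05 (-0.26 to 0.36) in ahcy+/+ livers. Array 9 was the lowest, and without it the ahcy+/+ difference of mdh1aa was -0.15 (-0.32 to 0.02). mdh2 differed by -0.47 (-0.86 to -0.09) and -0.18 (-0.47 to 0.1), with an adjusted p of 0.0784 for the mean of both genotypes and of 0.0229 without array 9. pkmyt1, which is no metabolic enzyme, differed by -0.32 and -0.56.

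Complete separation of the diets was rare. Across all 14 arrays the overfed and regular-diet livers did not overlap for 3 of 44 members (6.82%), against 3.55% of all probe sets, and these were pgam1a above and eno1b and mdh1ab below. Within ahcy+/+ livers the same 3 genes did not overlap, against 8.68% of all probe sets. Within the 2 and 3 arrays of ahcy+/- livers 11 of 44 members did not overlap (25%), against 32.1% of all probe sets.

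Whether paralogues changed unequally was tested within arrays, as the difference between both genes' log2 values on each array. For 28 pairs an exact 2-sided permutation test over the 126 splits of 5 overfed and 4 regular-diet ahcy+/+ arrays was run, whose smallest possible p is 0.00794. Unadjusted, 8 of 28 pairs passed 0.05, and 0 passed after Benjamini-Hochberg adjustment over the 28, with a smallest adjusted p of 0.0741. The smallest possible p was reached by pgam1a against pgam2, by eno1b against eno3 and by mdh1aa against mdh1ab. pgam1a minus pgam2 was 2.70 to 3.23 in overfed and 1.38 to 2.40 in regular-diet ahcy+/+ livers, a difference of 0.91. eno1b minus eno3 was -7.25 to -6.91 in overfed and -6.88 to -5.23 in regular-diet livers, a difference of -0.63, and mdh1aa minus mdh1ab was 7.43 to 7.76 in overfed and 6.42 to 7.39 in regular-diet livers, a difference of 0.44. The ranges of these 3 pairs did not overlap, and with any array left out the differences were 0.70 to 1.04, -0.78 to -0.23 and 0.22 to 0.54. Without array 9 of the regular-diet group they were 1.04, -0.23 and 0.22. The eno1b and mdh1ab probe sets were dim, at means of 5.82 and 6.26, and eno3 and mdh1aa bright, at 12.71 and 13.62. How far either end of the scale limits these differences was not tested.

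The duplicates pgam1a and pgam1b were among the other pairs that passed unadjusted. pgam1a minus pgam1b gave 0.56 (exact permutation p 0.0317, adjusted 0.148), with ranges of 2.68 to 3.38 in overfed and 2.19 to 2.74 in regular-diet ahcy+/+ livers that overlapped. ldhba minus ldhbb gave -1.25 (p 0.0476), aldoab minus aldoca -2.11 (p 0.0238), aldoab minus aldocb -2.65 (p 0.0397) and pfklb minus pfkpa -0.79 (p 0.0317), all unadjusted exact permutation values. eno1a minus eno1b gave 0.64 and did not pass (p 0.119), with ranges of 1.19 to 2.60 in overfed and 0.89 to 1.66 in regular-diet livers. Among ahcy+/- livers, where 2 against 3 arrays allow no p below 0.1, the sign was that of ahcy+/+ livers for 23 of 28 pairs. There pgam1a minus pgam2 was 1.35, eno1b minus eno3 -0.19, mdh1aa minus mdh1ab 0.34, pgam1a minus pgam1b 0.24 and ldhba minus ldhbb -1.40. A test over both genotypes together, with arrays exchanged within a genotype over 1260 splits, was chosen after seeing the data and passed for 12 of 28 pairs after adjustment.

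**Figure D5:**
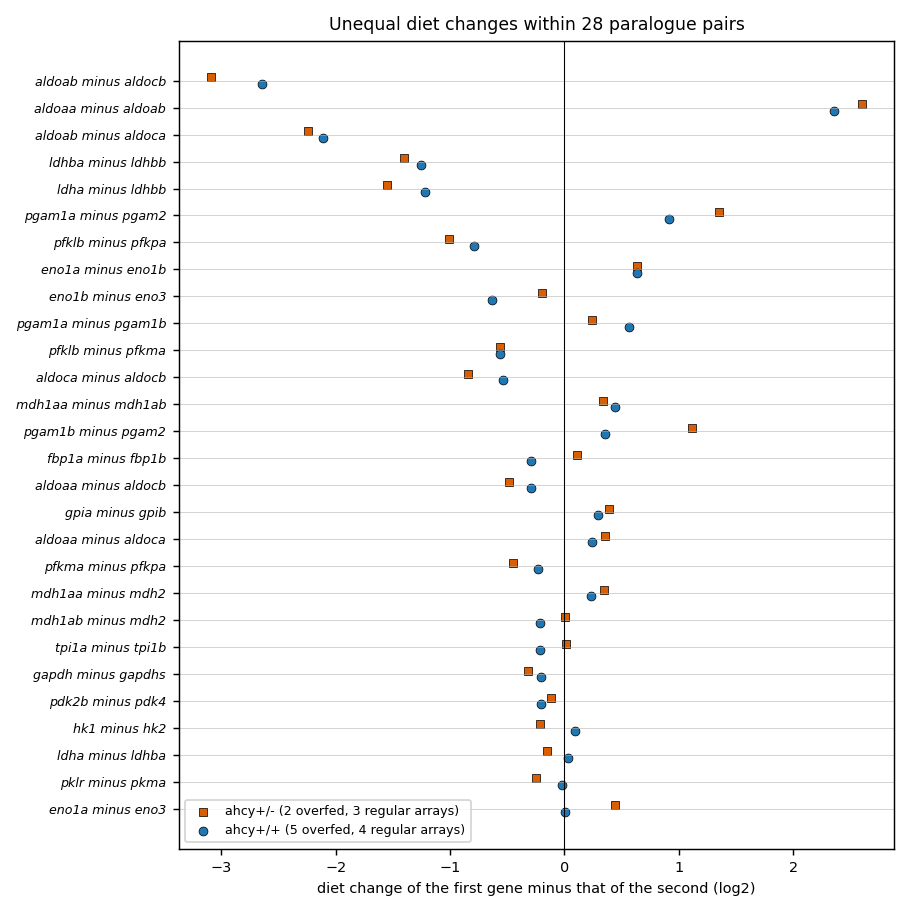
For each of 28 paralogue pairs the log2 diet difference of the first gene minus that of the second is shown for ahcy+/- livers (squares) and ahcy+/+ livers (circles), ordered by the size in ahcy+/+ livers. The pairs with aldoab lie farthest from 0, and both genotypes are on the same side of 0 for 23 of 28 pairs.

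Heterozygosity for ahcy changed 0 of 44 members in limma on either diet, and the background was 0% of probe sets. At an unadjusted p of 0.05, 3 of 44 members passed on the regular diet, against 3.03% of all probe sets: gpib, mdh2 and pgam1a, with ahcy+/- minus ahcy+/+ differences of 0.36, 0.35 and 0.46. Without array 9 mdh2 and pgam1a no longer passed, at 0.25 and 0.22 with unadjusted p-values of 0.0981 and 0.0535 in limma, and gpib, fbp1a and pdhx did. In overfed livers 0 of 44 passed unadjusted, against 1.72%, and for the mean of both diets 1 did, gpib, against 2.45%. On the regular diet 34 of 44 members had a higher mean in ahcy+/- than in ahcy+/+ livers, and their median difference was 0.15, against 0.05 for all probe sets, of which 62.7% were positive. Without array 9 the count was again 34 of 44, the median was 0.11, and 8 members had changed sign. In overfed livers 22 of 44 differences were positive, with a median of 0.00. The interaction of genotype and diet passed for 0 of 44 members, with 0 unadjusted, against 1.91% of all probe sets, so pgam1a, ldhbb, eno1b and mdh1ab were not shown to respond differently in the 2 genotypes.

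Among genes next to the pathway, several that were listed for gluconeogenesis were higher after overfeeding. For the mean of both genotypes 4 of 8 measured genes of this list rose and 0 fell (limma), against 5.83% of all probe sets rising. The list is not confined to genes used in gluconeogenesis only. Those that rose were pck2, the mitochondrial phosphoenolpyruvate carboxykinase, by 0.73 ± 0.10 (adjusted p 0.00152 in limma), and g6pc1a.2, a glucose-6-phosphatase, by 0.46. The others were slc37a4a, a glucose-6-phosphate transporter, by 0.87, and gpt, alanine aminotransferase, by 1.02. pck2 also rose in ahcy+/+ livers, by 0.67 (adjusted p 0.0108), and passed whichever array was left out in both comparisons, but not with the muscle markers as a covariate (adjusted p 0.18 and 0.0655). g6pc1a.2 passed in all 14 such fits, slc37a4a in 5 and gpt in 7, with highest adjusted p-values of 0.0455, 0.126 and 0.155. All 3 lost the call with the muscle covariate (adjusted p 0.203, 0.385 and 0.434), g6pc1a.2 and slc37a4a also with quantile normalization (0.071 and 0.0531), and gpt with all its probe sets averaged (0.168) or without the 2 arrays highest in vitellogenin (0.066). Of 22 genes listed for the citrate cycle idh3a (0.49), ogdha (1.21) and me1 (0.89) rose and fh (-0.41) fell for the mean of both genotypes. This list is not confined to enzymes of the cycle, as it holds malic enzymes such as me1. Over all probe sets 5.83% rose and 4.5% fell. idh3a and ogdha belong to enzyme complexes of the cycle, fh is fumarase and me1 the NADP-linked malic enzyme, and they passed in 13, 12, 11 and 11 of the 14 fits. With the muscle covariate the calls for idh3a, ogdha, fh and me1 were lost (adjusted p 0.331, 0.26, 0.33 and 0.323), as they were for idh3a and me1 with pancreas and intestine covariates (0.0934 and 0.105), for fh with centring on array medians (0.0572) and for me1 with 3 more settings (0.0699 to 0.0991). me1 also rose in ahcy+/+ livers, by 0.99 with an adjusted p of 0.0497, and passed there in 2 of the 14 fits and not with the muscle covariate (0.146).

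Of 10 glycogen genes phkg2, the catalytic subunit of phosphorylase kinase, rose in ahcy+/+ livers by 1.23 ± 0.18 (adjusted p 0.00562) and for the mean of both genotypes by 1.16, and gyg1a, a glycogenin that primes glycogen, fell by 0.79 for the mean. phkg2 passed whichever array was left out, in both comparisons, and gyg1a in 4 of 14 such fits. With the muscle covariate phkg2 did not pass in ahcy+/+ livers (adjusted p 0.0511) or for the mean (0.203), and gyg1a did not pass with the muscle (0.452), hepatocyte (0.168) or pancreas and intestine (0.352) covariates or with centring on array medians (0.0604). Of 7 pentose phosphate genes prps1a rose (0.62) and pgls fell (-0.44) for the mean, passing in 4 and 12 of the 14 fits, but the average of all pgls probe sets gave 0.05, and with the muscle covariate their adjusted p-values were 0.633 and 0.362. Among 4 measured regulators txnipa, a glucose-induced protein that restrains glucose uptake, rose by 1.30 ± 0.31 in ahcy+/+ livers (adjusted p 0.0339) and by 1.52 ± 0.26 for the mean (adjusted p 0.00484), and tigarb, a fructose-2,6-bisphosphatase, fell by 0.37 for the mean. txnipa passed in 7 of the 14 fits in ahcy+/+ livers and in all 14 for the mean, and tigarb in 13. With the muscle covariate txnipa did not pass in ahcy+/+ livers (adjusted p 0.0619) or for the mean (0.148), and tigarb did not pass with the muscle (0.426), hepatocyte (0.0868) or pancreas and intestine (0.189) covariates. Of 8 glucose, lactate and pyruvate transporter genes 0 passed in ahcy+/+ livers in limma, against 4.5% of all probe sets. Unadjusted 3 passed, against 19.7%, among them slc16a3b, a lactate exporter, with 1.67 and an adjusted p of 0.0535. Of 7 genes of fructose and glycerol use 0 passed in ahcy+/+ livers and 2 passed unadjusted, against the same shares. In ahcy+/- livers 0 of these 66 neighbouring genes passed in limma, against 0.0991% of all probe sets, and 12 passed unadjusted, against 14.2%. With the muscle covariate, which itself separated the diets, 0 of the 66 passed in either genotype or for the mean. Another list held 17 tested genes tied to low oxygen and not glycolytic. It mixed genes induced by low oxygen with regulators of that response, such as hif1an, so its counts are not of induced genes alone. Of the 17, 5 rose and 0 fell in ahcy+/+ livers, led by ddit4 (4.07) and egln3 (3.72). In ahcy+/- livers 3 rose, and 7 rose for the mean. With the muscle covariate 4 rose in ahcy+/+ livers, 0 in ahcy+/- livers and 3 for the mean. The share of all probe sets that rose was 0.0661% in ahcy+/- livers, 3.07% in ahcy+/+ livers and 5.83% for the mean. The share that fell was 0.033%, 1.43% and 4.5%.

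A further 10 probe sets covered 8 of the members. In ahcy+/+ livers 6 of the 10 had the sign of the gene's chosen probe set, and 0 passed the threshold in limma. pgam1a, eno1b, ldhbb, mdh1ab and aldoab had 1 probe set each, so their values rest on a single set of probes.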

How the data were processed

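The deposited values are log2 summaries per probe set that the authors made from single-colour Affymetrix arrays. The submitters' processing notes name GCRMA and Partek without saying what each did. The log2 scale was read from the values themselves, which lie between 0.464 and 14.7, with medians per array of 5.95 to 6.12. Scanner files were not used here.

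Of 15502 probe sets left without the 115 controls, 15134 were above 4 (log2) on at least 2 arrays and were tested. Gene names came from the platform annotation (10795 probe sets of 1 gene, 135 of several and 4572 of none), and all 45 members matched a reference gene table by gene number. Group means were fitted to all 14 arrays in limma 3.58.1 (R 4.3.3; lmFit and eBayes, no covariate, 10 residual and 3.06 prior degrees of freedom). P-values were Benjamini-Hochberg adjusted within each contrast, over every probe set tested, with a threshold of 0.05. The fit was checked on simulated data.

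The members, the gene lists and the tests were chosen with earlier results of these data known, so that no count of members is independent support. All members are accounted for. Those given with every array's value are the members past the threshold, pgam1a and eno1b with their paralogues and the highest-mean member of each step, and of the other lists up to 4 genes with the smallest p. The array values of ldha and the remarks on single arrays were added after the values were seen. Replicate numbers are those of the titles, and same-numbered arrays are not tied to shared animals. Sequences and genome positions were not used here. Alternatives changed the low-value filter (none, or 6), the variance moderation (trend and robust), the arrays fitted (only the groups compared, or 1 array left out), the array weights, the scaling (quantile, or array medians), the replicate block, the probe sets (averaged per gene), the members (core enzymes) and the covariate (vitellogenin, muscle, or pancreas with intestine). A hepatocyte covariate, a fit without the 2 arrays highest in vitellogenin, and a paralogue test over both genotypes were added after seeing the data. Python 3.11.15 with matplotlib 3.10.9 drew the figures.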

Additional observations from a re-analysis of the deposited data

Results flagged for a closer look

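Of 90 groups of 4 or 5 arrays examined for a single distant value among the 45 genes, 9 held one by Dixon's criterion, and chance gives about 1 in 20. Array 9 of the regular-diet ahcy+/+ group accounted for 7, all of them low: fbp1a at 6.18 (the other 3 at 7.80 to 7.97), fbp1b at 12.11 (13.27 to 13.28), tpi1b at 11.53, pgk1 at 10.27, eno3 at 11.68, pklr at 12.29 and mdh1aa at 12.97. Array 2 of the overfed ahcy+/+ group accounted for the other 2, with pdhx at 7.72 (the other 4 at 7.41 to 7.48) and mdh1ab at 5.89 (6.08 to 6.12).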

How the results depend on the processing

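In ahcy+/+ livers the 4 members past the threshold became 1 with the compared groups alone (mdh1ab), 1 with quantile normalization (eno1b), 1 with the hepatocyte covariate (aldoab), 2 with pancreas and intestine covariates (ldha and pdhx) 0 with the muscle covariate, 5 with the vitellogenin covariate, 6 with array weights, and 0 to 5 with an array left out. The cause was not tested. In ahcy+/- livers 0 passed, and 0 to 1 with an array left out. For the mean of both genotypes the 4 became 9 with array weights, 0 with the muscle covariate, 8 without the 2 arrays highest in vitellogenin, and 1 to 8 with an array left out. These counts do not show which members were lost, as eno1b and ldhbb were with the pancreas and intestine or the hepatocyte covariates. For most of these fits, here and above, the share of all probe sets called is not given. A changed count of members therefore cannot be told from a changed background. Without array 9 alone, 2318 probe sets passed for the mean of both genotypes, against 1564 with it. The genotype and interaction counts were 0 under every alternative run. With pancreas and intestine covariates ldha in ahcy+/+ livers was 1.35 (adjusted p 0.0492), against -0.00, and with all probe sets averaged pgls turned to 0.053 for the mean. The adjusted paralogue count of 0 became 12 over both genotypes and was 0 with each array left out. With the replicate number as a block the counts were again 4 in ahcy+/+ livers and 4 for the mean (consensus correlation 0.0763). Same-numbered arrays, each taken minus its group mean, correlated at -0.23 to 0.16. With so few pairs and such small groups, these values cannot tell whether the numbers pair the arrays. Centring on array medians moved the calls over all probe sets in ahcy+/+ livers to 617 higher and 165 lower, against 465 and 216, and the median of all probe sets in ahcy+/- livers to 0.01, against -0.09. The probe sets of eno1b and mdh1ab were dim, at means of 5.82 and 6.26, near the array medians of 5.95 to 6.12. How far background signal limits them was not tested.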
